A study of Mus musculus with 4 samples.

Results

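Regulatory T cells of the mouse liver were picked from single-cell RNA libraries of sorted liver leukocytes, 12 h after and before cancer cells were injected into the spleen. A barcode counted as a regulatory T cell (Treg) when it held at least 1 unique molecular identifier (UMI, the tag that marks 1 captured transcript) of Cd3d, Cd3e or Cd3g and either a Foxp3 UMI or at least 1 UMI each of Ikzf2 and Ctla4. It also had to hold no UMI of Cd8a, Cd8b1 or Cd79a and at most 1 of Lyz2, to leave out CD8 T cells, B cells and myeloid cells. A cell of these types whose marker transcripts were not captured can still pass, and how many did was not tested. The rule found 273 Tregs among 20039 barcodes that had at least 200 genes and under 10% mitochondrial UMIs. The IL-22-negative libraries held 126 of them at 12 h and 144 at 0 h, and the IL-22-positive libraries held 1 at 12 h and 2 at 0 h.

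The leukocytes came from IL-22sgBFP mice, in which a blue fluorescent protein reports IL-22, and CD45+ cells were split by sorting into reporter-negative (IL-22-negative) and reporter-positive (IL-22-positive) fractions. The groups were IL-22-negative cells 12 h after injection of MC38 cells, a mouse colon carcinoma line, IL-22-negative cells before injection (0 h), and the IL-22-positive cells of the same times. Every group had the reporter genotype and 1 library, and the labels do not give the number, age or sex of the mice. The series asks which liver leukocytes make IL-22 when cancer cells arrive. No group received an injection without cancer cells, so the effect of the surgery and that of the cells cannot be told apart.

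Tregs are CD4 T cells that restrain other lymphocytes. Foxp3 is their lineage transcription factor, Ikzf2 encodes Helios, a zinc-finger factor of most thymus-derived Tregs, and Ctla4 encodes an inhibitory receptor that competes for the CD28 ligands on antigen-presenting cells. Their growth and survival depend on interleukin 2, bound through Il2ra, and on TNF receptor family members such as Tnfrsf4 (OX40) and Tnfrsf18 (GITR). In non-lymphoid organs, the liver among them, a share of Tregs takes on a tissue program with Areg, Klrg1, Gata3 and Il1rl1, while resting Tregs keep the homing and quiescence genes Ccr7, Tcf7 and Lef1.

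The IL-22-negative libraries held 29859062 UMIs over 10099 kept barcodes at 12 h and 18891674 UMIs over 8301 kept barcodes at 0 h. A Treg had a median of 2241.5 UMIs and 1008.5 genes at 12 h, and of 1665.5 UMIs and 839.5 genes at 0 h. The Tregs of a library together held 380661 UMIs at 12 h and 343031 UMIs at 0 h, and mitochondrial genes took 1.92% and 2.13% of them. The IL-22-negative libraries shared 110 barcodes, none of them a Treg in both. With 1 library per group there is no replicate, so nothing below was tested. Levels are UMIs per 1000000 summed UMIs of a group of cells (CPM), and a gene is called higher or lower when its CPM differed at least 1.5-fold and the 2 sums held at least 50 of its UMIs. Intervals in parentheses are exact 95% intervals that cover counting error alone, and a ratio compares 2 libraries, not 2 conditions.

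The Foxp3 condition and the Ikzf2-Ctla4 condition picked largely different barcodes. Foxp3 (GRCm38 chrX:7573644-7595245, plus strand) gave 67 UMIs in 52 Tregs at 12 h and 53 UMIs in 42 Tregs at 0 h, and these cells are called the Foxp3 arm. The other 74 Tregs of 12 h and 102 of 0 h entered through Ikzf2 (chr1:69531214-69687245, minus strand) and Ctla4 (chr1:60887000-60915832, plus strand) and held no Foxp3 UMI. They are called the Ikzf2-Ctla4 arm. Only 16 Tregs of 12 h and 10 of 0 h met both conditions. Most of the Foxp3 arm lay at the threshold, with exactly 1 Foxp3 UMI in 38 cells at 12 h and 33 at 0 h, and exactly 1 UMI each of Ikzf2 and Ctla4 brought in 26 and 28 Tregs. Just outside, 244 CD8-negative T cells of 12 h and 226 of 0 h held Ikzf2 but neither of the other genes, and 306 and 251 held Ctla4 alone. Cd4, which the rule did not ask for, was seen in 39 of 126 Tregs at 12 h and 44 of 144 at 0 h.

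Droplet libraries carry free RNA, so the same conditions were read in B cells and CD8 T cells. At 12 h CD8 T cells held Ikzf2 in 7.83% and Ctla4 in 12.3%, against 1.07% and 4.42% of B cells. CD8 T cells were also deeper, with a median of 2866 UMIs against 1646 in B cells, and a UMI is easier to see in a deeper cell. The part of free RNA in any share was not tested. A Foxp3 UMI was found in 3 of 1969 B cells at 12 h (0.152%) and 5 of 1974 at 0 h (0.253%), with median depths of 1646 and 1680.5 UMIs. In the CD8-negative T cells from which Tregs were drawn, the share was 1.53% at 12 h and 1.71% at 0 h, with median depths of 2128 and 1842.5 UMIs. CD8 T cells carried Foxp3 in 16 of 1251 at 12 h (1.28%) and, at 0 h, 3 of 901 (0.333%), at deeper medians of 2866 and 2808 UMIs. Ikzf2 and Ctla4 came together in 2.64% of CD8-negative T cells at 12 h and 4.57% at 0 h, against 1.44% and 1.66% of CD8 T cells and 0.102% and 0.203% of B cells. Both conditions thus stood above the share in B cells, whereas that of Foxp3 at 12 h was near the share in CD8 T cells.

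Tnfrsf4, the Treg marker that the rule did not use (chr4:156013843-156016612, plus strand), was seen in 59 of 126 Tregs at 12 h (46.8%) and 71 of 144 at 0 h (49.3%). Among conventional CD4 T cells it was seen in 46 of 279 at 12 h (16.5%) and 49 of 241 at 0 h (20.3%), and among B cells in 0.711% and 1.32%. Conventional CD4 T cells here are CD8-negative T cells with a Cd4 UMI, outside the Treg conditions, and with no UMI of 7 genes of innate-like, NK and gamma-delta T cells (Zbtb16, Klrb1c, Ncr1, Trdc, Tcrg-C1, Tcrg-C2 and Tcrg-C4), a condition that was not put on Tregs. The Foxp3 arm carried Tnfrsf4 in 32 of its 52 members at 12 h and 22 of its 42 at 0 h, and it held no UMI of Zbtb16, the factor of innate-like T cells, or of the NK receptor gene Ncr1. All Zbtb16 UMIs of the Tregs, in 5 cells at 12 h and 4 at 0 h, and all Ncr1 UMIs, in 6 cells and 1 cell, lay in the Ikzf2-Ctla4 arm. Just outside the gate, Tnfrsf4 stood at 80.8 CPM at 12 h and 340.2 CPM at 0 h in cells with Ikzf2 alone, and at 151 and 268 CPM in those with Ctla4 alone. In all, 24 Tregs of 12 h and 17 of 0 h held a UMI of those 7 genes when Ncr1 is set aside. Only these cells are called innate-like below, so a cell with Ncr1 alone is not among them. The name Treg thus rests on a Foxp3 UMI in the Foxp3 arm alone. The Ikzf2-Ctla4 arm also held the cells with Zbtb16 or Ncr1. The summed Tnfrsf4 level, given below, was higher in the Foxp3 arm than in the Ikzf2-Ctla4 arm at 12 h and lower at 0 h. Whether the arms differ in it was not tested. The Foxp3 arm was not free of NK transcripts. The NK marker list summed to 2042 CPM in it at 12 h and 2177 CPM at 0 h. In the Ikzf2-Ctla4 arm the sums were 4284 and 3853 CPM, and in conventional CD4 T cells 2806 and 3603 CPM.

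Tregs made up a smaller share of CD8-negative T cells at 12 h than at 0 h, with a lower ratio in the Ikzf2-Ctla4 arm than in the Foxp3 arm; the difference between the arms was not tested. They were 126 of 3408 such cells at 12 h (3.70%, 3.09 to 4.39) and 144 of 2452 at 0 h (5.87%, 4.97 to 6.88), a ratio of 0.630 (0.492 to 0.805). The Foxp3 arm was 1.53% of them at 12 h (1.14 to 1.996) and 1.71% at 0 h (1.24 to 2.31), a ratio of 0.891 (0.582 to 1.37) whose interval includes 1. The Ikzf2-Ctla4 arm was 2.17% at 12 h and 4.16% at 0 h, a ratio of 0.522 (0.382 to 0.711). Per barcode with a Cd3 UMI the ratio for all Tregs was 0.740, and per kept barcode 0.719. For the Foxp3 arm these ratios were 1.05 (0.684 to 1.61) and 1.02 (0.665 to 1.57), so its share was not smaller on either denominator. For the Ikzf2-Ctla4 arm they were 0.613 and 0.596.

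Because more UMIs per cell make it easier to see 1 UMI, every cell was also thinned to 1000 UMIs and shallower cells were left out. Tregs were then 49 of 3329 CD8-negative T cells at 12 h (1.47%) and 66 of 1987 at 0 h (3.32%), a ratio of 0.443 (0.2998 to 0.651). The thinned ratio was 0.675 (0.370 to 1.24) for the Foxp3 arm and 0.319 (0.184 to 0.542) for the Ikzf2-Ctla4 arm. The deeper library thus had the smaller share. The ratio was lower still in the thinned cells, where shallower barcodes were also dropped, which left 9379 of 10099 at 12 h and 6456 of 8301 at 0 h, and where the CD8-negative T cells were gated anew. Shares cannot tell fewer Tregs from more of the other T cells.

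**Figure D1:**
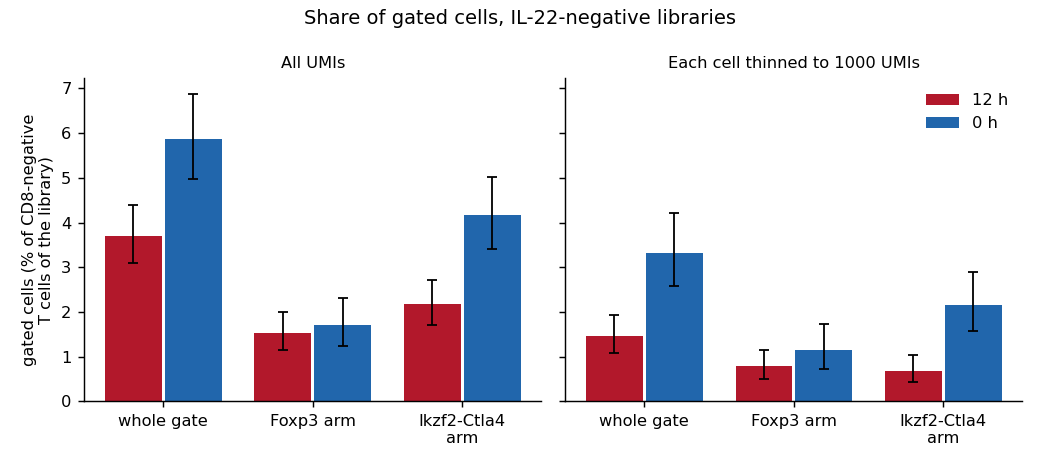
Bars give the percent of CD8-negative T cells that were Tregs (whole gate) or belonged to either arm, at 12 h (left bar of a pair) and 0 h, in the IL-22-negative libraries, with exact 95% intervals of counting error. The left panel uses all UMIs and the right panel cells thinned to 1000 UMIs; the Foxp3 arm's intervals overlap between the times, while the Ikzf2-Ctla4 arm is lower at 12 h in both panels.

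Set against conventional CD4 T cells of the same library, Tregs were richer in TNF receptor family, co-inhibitory and tissue repair transcripts and poorer in transcripts of resting and helper T cells at both times. Since the gates divide the cells by Foxp3, Ikzf2 and Ctla4, and those genes are used together with others, these values describe the gated cells and support nothing further. Of 2765 measured genes at 12 h, 261 (9.44%) were at least 1.5-fold higher and 137 (4.95%) lower in Tregs. At 0 h the counts were 145 higher (6.17%) and 174 lower (7.4%) of 2351. The balance at 12 h depended on the scaling: 65.6% of the called genes were higher in Tregs as CPM, 55.7% after median-ratio scaling and 49.7% when mitochondrial and ribosomal UMIs were left out of the total.

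Of the 20 Treg identity genes outside the gate, 10 were measured at 12 h, and 8 were higher in Tregs and none lower, and the median log2 ratio was 0.87 against 0.05 over all measured genes. At 0 h, 6 of 11 were higher and 1 was lower, with a median of 0.60 against 0.01. Tnfrsf4 stood at 391 CPM in Tregs against 127 CPM in conventional CD4 T cells at 12 h, a ratio of 3.08 (2.37 to 4.03), and at 647 against 252 CPM at 0 h, a ratio of 2.57 (2.06 to 3.22). Tnfrsf18 followed with ratios of 1.78 at 12 h and 2.06 at 0 h. Tigit, an inhibitory receptor that binds CD155, had a ratio of 3.17 at 12 h and 2.28 at 0 h. The actin-capping gene Capg had ratios of 2.54 and 2.17 and the co-stimulatory receptor gene Cd27 of 2.70 and 1.52. These 5 genes were higher in Tregs at both times. Icos, Izumo1r (folate receptor 4) and Ikzf3 (Aiolos) passed 1.5-fold at 12 h alone, with ratios of 1.53, 1.77 and 1.88, and had ratios of 1.12, 1.49 and 1.03 at 0 h; whether the times differ was not tested. Nrp1, a receptor of thymus-derived Tregs, passed at 0 h, with a ratio of 2.13.

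Il2ra, the interleukin 2 receptor alpha chain and the classical surface marker of Tregs, was barely captured. It gave 17 UMIs in 15 of 126 Tregs at 12 h (44.7 CPM) and 18 UMIs in 15 of 144 at 0 h (52.5 CPM), against 16 UMIs (21.4 CPM) and 9 UMIs (17.9 CPM) in conventional CD4 T cells. The suppressive cytokine gene Il10 gave 5 UMIs in Tregs at 12 h and 8 at 0 h, against 0 and 3 in conventional CD4 T cells, and Il1rl1, which encodes the IL-33 receptor, 3 UMIs in Tregs at each time. Il17a, the cytokine of type 17 T cells, was at 0 UMIs in Tregs at both times. At 12 h the 3 UMIs that define the floor equal 7.88 CPM, and at 0 h 8.75 CPM. A sum of 0 UMIs in Tregs allows a level of up to this floor, so it does not show that a gene was absent.

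Areg, which encodes the epidermal growth factor receptor ligand amphiregulin, was a gene of the tissue program that was higher in Tregs at both times. It was found in 23 of 126 Tregs at 12 h and 29 of 144 at 0 h, against 8 of 279 and 18 of 241 conventional CD4 T cells. Its level was 168 CPM in Tregs against 20.0 CPM in conventional CD4 T cells at 12 h, a ratio of 8.39 (4.73 to 15.8), and 227 against 91.3 CPM at 0 h, a ratio of 2.49 (1.71 to 3.67). Klrg1, an inhibitory receptor of terminally differentiated lymphocytes, had 29 UMIs in 11 Tregs at 12 h, against 2 UMIs in conventional CD4 T cells, too few to be called, though the ratio was 28.5 (7.21 to 247). At 0 h it had 37 UMIs in 17 Tregs, against 14 UMIs, a ratio of 3.88 (2.05 to 7.78). Of the 24 effector and tissue genes, 4 of 7 measured were higher in Tregs at 12 h (Areg, Tigit, Maf and Rora; median 0.71) and 4 of 8 at 0 h (Areg, Tigit, Klrg1 and Batf; median 0.51), and none was lower. Gata3, a factor of type 2 and tissue T cells, did not pass, with ratios of 1.47 and 1.14. The NF-kappaB list, feedback genes of the pathway that TNF receptors feed, had 5 of 9 members higher at 12 h, among them the inhibitor gene Nfkbia at 1.88, and 3 of 6 at 0 h, with Traf1 and Icam1 in both counts.

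Genes of resting T cells went the other way. Of 14, 5 of 12 measured were lower in Tregs at 12 h and 7 of 10 at 0 h, none was higher, and the medians were -0.56 and -0.78. Tcf7, a factor of naive and memory T cells, had ratios of 0.434 (0.294 to 0.626) at 12 h and 0.580 at 0 h, and Ly6c1 of 0.590 and 0.432. Dapl1 and Igfbp4, genes of naive T cells, had ratios of 0.0715 and 0.0634 at 12 h, and Lef1, Klf2, Il7r and Bcl2 passed at 0 h with ratios between 0.570 and 0.602. Cd40lg, the helper T cell ligand for CD40 on B and dendritic cells, had 63.0 CPM in Tregs against 167 CPM in conventional CD4 T cells at 12 h, a ratio of 0.377 (0.233 to 0.588). At 0 h it had 49.6 CPM in Tregs against 121 CPM, a ratio of 0.410 (0.224 to 0.710). The transcripts of this ligand were thus the lower ones in Tregs at either time.

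Beyond the lists, Tregs had more S100a4 (ratio 2.18 at 12 h, 2.12 at 0 h), Pglyrp1 (2.40 and 2.96), Glrx (2.81 and 1.93), Aplp2 (1.93 and 3.17) and the integrin gene Itgav (4.98 and 2.66) at both times. Vim and Lgals3 were among the most raised genes at 0 h alone, with ratios of 2.04 and 2.46, against 1.35 and 0.669 at 12 h. Gzmc, Gzma, Ccl4, Gzmb and Cxcl10 were picked at 12 h by the naming rule, which asks for a mean of 100 CPM and ranks genes by the interval bound nearest to 1, with ratios of 72.7, 4.40, 3.45, 3.30 and 3.87, and are taken up with the change over time. Rflnb was lower in Tregs at both times, with ratios of 0.386 and 0.247. The class II genes H2-Aa and Cd74 were also lower, at 0.290 and 0.485 at 12 h and 0.266 and 0.517 at 0 h, as was Ly6c2, at 0.135 and 0.479. Plac8, Psap, Txnip and Hist1h2ae completed the 12 h genes with ratios of 0.388, 0.484, 0.478 and 0.521, and Klk1, H2-Ab1, Tyrobp, Bst2 and Cd247 those of 0 h with 0.0416, 0.303, 0.302, 0.401 and 0.381.

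The conventional CD4 gate held transcripts of plasmacytoid dendritic cells, which carry Cd4 and class II genes themselves. Klk1 had 81 UMIs in 7 of its cells at 12 h and 106 UMIs in 14 at 0 h, against 1 and 3 UMIs in Tregs. In an alternative added after seeing the data, cells of both classes with a UMI of Siglech, Klk1, Tyrobp or H2-Aa were left out. The ratio of Cd74 then became 1.28 at 12 h and 1.17 at 0 h, and 99 in place of 174 genes were lower in Tregs at 0 h. B cell genes were also lower in Tregs, with 5 of 6 measured members at each time (the other was higher at 12 h) and list sums of 667 CPM in Tregs against 1267 CPM in conventional CD4 T cells at 12 h, and 1271 against 2688 CPM at 0 h. The part of such RNA in the remaining ratios was not tested.

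**Figure D2:**
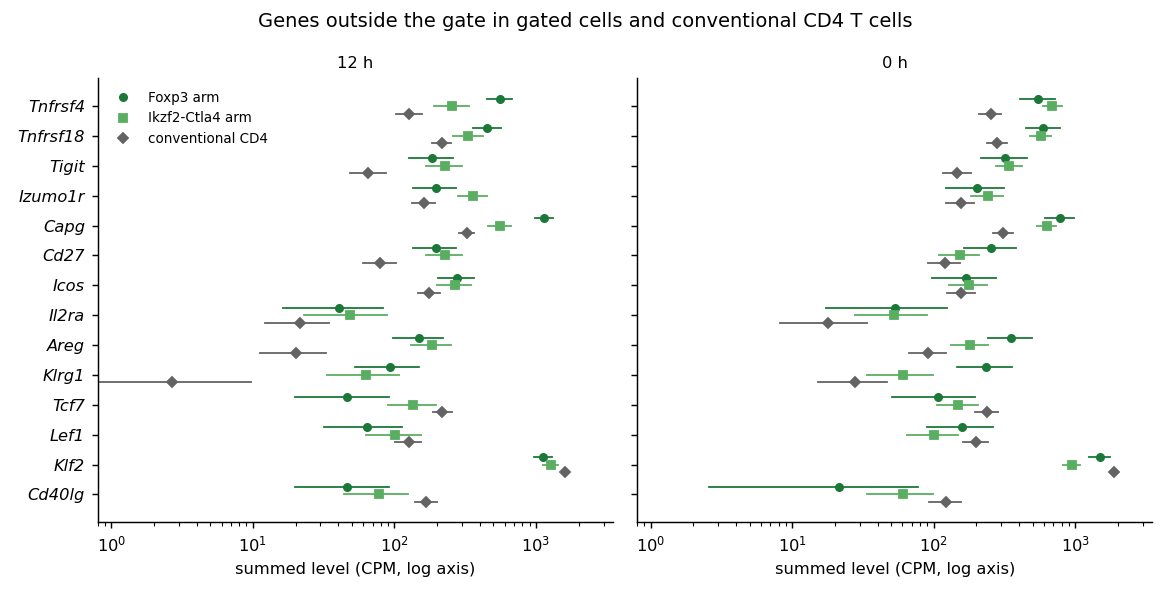
Summed level in CPM (log axis) of 14 genes outside the gate in the Foxp3 arm (circles), the Ikzf2-Ctla4 arm (squares) and conventional CD4 T cells (diamonds) of the IL-22-negative libraries, 12 h on the left and 0 h on the right, with exact 95% intervals. Tnfrsf4, Capg and Areg lie to the right of the conventional cells in both arms and at both times, and Cd40lg and Tcf7 to the left.

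Between the times, the change that the most genes of 1 list shared in Tregs was a higher interferon response at 12 h. Of 1990 measured genes, 113 (5.68%) were at least 1.5-fold higher at 12 h and 152 (7.64%) lower, around a median log2 ratio of -0.01. Of the 30 interferon response genes, 17 were measured, and 12 of them were higher and none lower, with a median of 0.77. Their summed level was 7750 CPM at 12 h and 4615 CPM at 0 h, a ratio of 1.68 (1.58 to 1.79), or 1.60 when the cell with the most such UMIs was left out at each time. In conventional CD4 T cells 5 of 19 were higher and 1 lower, against 3.36% and 12.4% of 3062 measured genes, and the summed ratio was 1.24. In CD8 T cells 13 of 27 were higher, against 3.53% of 7112 genes, with a summed ratio of 1.39. Whether Tregs differed from the other cells in this was not tested.

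Isg15, a ubiquitin-like protein that interferon induces, led the list. It had 209 UMIs in 39 of 126 Tregs at 12 h (549 CPM) and 45 UMIs in 19 of 144 at 0 h (131 CPM), a ratio of 4.19 (3.02 to 5.91), and 3.31 without the 1 cell that held the most of its UMIs (its top cell). In conventional CD4 T cells its ratio was 1.96. Ifi27l2a, the most abundant interferon gene in Tregs, had 3066 CPM at 12 h and 1764 CPM at 0 h, a ratio of 1.74 (1.57 to 1.92), against 1.32 in conventional CD4 T cells. It was seen in 98 of 126 Tregs at 12 h and 90 of 144 at 0 h, so most Tregs carried it at either time, whereas Isg15 was found in a minority. The exonuclease gene Isg20 had a ratio of 3.38 (2.04 to 5.84), the growth regulator Slfn5 of 2.79 (1.68 to 4.80), Rtp4 of 2.82, Phf11b of 2.18, the nucleic acid sensor Zbp1 of 1.80 and Oas1a of 1.72. Ly6a, which encodes Sca-1, had 1090.2 CPM at 12 h and 659 CPM at 0 h, a ratio of 1.65 (1.40 to 1.95). Xaf1, Trim30a and Bst2 had ratios of 1.71, 1.54 and 1.51. The intervals of Xaf1 and Trim30a included 1, and without their top cells Trim30a and Bst2 had ratios of 1.45 and 1.36. Sp110, another interferon-inducible gene, outside the list, was lower, with a ratio of 0.508 (0.336 to 0.758). The interferon gamma list gave 2 of 15 members higher (Socs1 at 1.72 and Cxcl10) and 1 lower (Tap1 at 0.418), with a median of 0.14.

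The interferon sum was higher at 12 h in both arms. The summed ratio was 1.497 (1.35 to 1.66) in the Foxp3 arm and 1.70 (1.57 to 1.84) in the Ikzf2-Ctla4 arm, and 1.38 and 1.61 without the top cell of each time. In the Foxp3 arm 1 cell held 233 of the 1458 interferon UMIs of 12 h. Per 10000 UMIs of a cell, the median Treg of the Foxp3 arm held 56.7 interferon UMIs at 12 h and 37.4 at 0 h, and that of the Ikzf2-Ctla4 arm 51.4 and 34.8, whereas conventional CD4 T cells had 37.0 and 33.0. The upper quartile of the Foxp3 arm was 73.8 at 12 h and 76.2 at 0 h, so it was not higher at 12 h, and that of the Ikzf2-Ctla4 arm was 96.7 and 54.4. Few genes reached 50 UMIs in the small Foxp3 arm: 2 of 7 measured members were higher, Isg15 at 3.77 (2.26 to 6.69) and Ifi27l2a at 1.58 (1.36 to 1.86), against 9.58% of 720 measured genes (8.47% were lower). In the Ikzf2-Ctla4 arm 6 of 9 were higher, against 4.78% of 1297 (6.94% were lower). In the 102 Tregs of 12 h without a UMI of the innate-like genes, Isg15 stood at 648 CPM, and in the other 24 at 271 CPM.

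**Figure D3:**
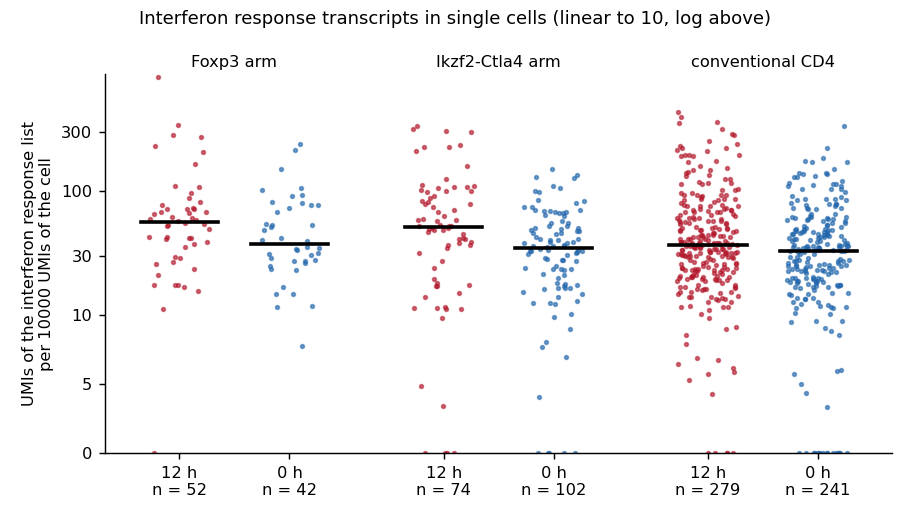
Each point is 1 cell of the IL-22-negative libraries, at its UMIs of the 30 interferon response genes per 10000 UMIs (linear to 10, log above), by arm and for conventional CD4 T cells, 12 h left of 0 h; black lines are medians. The medians at 12 h are 56.7 and 51.4 in the arms and 37.0 in conventional CD4 T cells, and the single cells overlap widely between the times.

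The promoters of the genes that rose together are shown because the element through which type I interferon acts, bound by the ISGF3 complex and IRF factors, has a short recognisable core. The 250 bases before the start of each gene were taken from RefSeq on GRCm38.p6 and searched on both strands, overlaps allowed, for GAAANNGAAA, where N is any base. Of the 12 genes that were higher, 8 matched the promoter table and 6 of these held the motif, against 936 of 27025 genes in the table (3.46%) and 2.98% of all windows. Over the 17 measured interferon genes, 12 matched and 7 held it. Isg15 (chr4:156200819-156201068, minus strand) had 3 overlapping matches, Bst2 (chr8:71537473-71537722, minus strand) 2 and Slfn5 (chr11:82951852-82952101, plus strand) 1, and capitals mark them below, 5′ to 3′ along the gene.
Isg15: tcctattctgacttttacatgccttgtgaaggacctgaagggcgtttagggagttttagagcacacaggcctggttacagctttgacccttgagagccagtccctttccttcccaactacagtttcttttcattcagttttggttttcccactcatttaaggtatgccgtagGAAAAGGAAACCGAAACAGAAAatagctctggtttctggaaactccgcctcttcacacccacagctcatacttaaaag
Bst2: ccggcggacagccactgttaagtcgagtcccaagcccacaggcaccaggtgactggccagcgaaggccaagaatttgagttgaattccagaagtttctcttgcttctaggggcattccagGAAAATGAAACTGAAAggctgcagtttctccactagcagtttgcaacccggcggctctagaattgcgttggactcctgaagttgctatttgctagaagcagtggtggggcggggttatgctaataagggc
Slfn5: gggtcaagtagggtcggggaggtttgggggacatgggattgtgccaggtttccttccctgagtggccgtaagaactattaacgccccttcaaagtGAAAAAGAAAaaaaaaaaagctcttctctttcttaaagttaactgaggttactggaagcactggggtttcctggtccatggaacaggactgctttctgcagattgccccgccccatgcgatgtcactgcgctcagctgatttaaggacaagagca
Oas1a also held 2 matches and Phf11b and Trim30a 1 each, while the windows of Isg20 and Xaf1 held none. A match describes these letters only and is not evidence of binding.

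Among the genes that the naming rule picked, 2 chemokine and 3 granzyme genes were also higher at 12 h. The chemokine genes Ccl4 and Ccl5 did not pass over all Tregs, with ratios of 1.15 and 0.671. Cxcl10, a ligand of CXCR3 on T and NK cells, had 132 UMIs in 25 Tregs at 12 h (347 CPM) and 28 UMIs in 11 at 0 h (81.6 CPM), a ratio of 4.25 (2.81 to 6.64), against 0.960 in conventional CD4 T cells. In the Foxp3 arm it had 66 and 4 UMIs, a ratio of 8.96 (3.34 to 33.9). Xcl1, the ligand of XCR1 on cross-presenting dendritic cells, had 79 UMIs in 20 Tregs at 12 h and 9 UMIs in 6 at 0 h, a ratio of 7.91 (3.96 to 17.9), and 59 and 7 of these UMIs lay in the Ikzf2-Ctla4 arm. Gzma had 447 CPM at 12 h and 160 CPM at 0 h, a ratio of 2.79 (2.04 to 3.85), and Gzmb 234 and 84.5 CPM, a ratio of 2.77 (1.80 to 4.36). Both encode granzymes, the proteases of cytotoxic granules. Gzmc had 111 UMIs at 12 h and 2 at 0 h, a ratio of 50.01 (13.5 to 418), but 102 of the 111 lay in 1 cell, and without it the ratio was 4.15. Without its top cell Gzma had a ratio of 1.84.

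Cells with innate-like transcripts held most of the granzyme signal at 12 h, but not at 0 h. At 0 h the 17 such Tregs held 20 Gzma UMIs against 35 in the other 127, and 9 Gzmb UMIs against 20. The 24 Tregs of 12 h with a UMI of an innate-like gene carried 146 of the 170 Gzma UMIs, 58 of the 89 Gzmb UMIs, 43 of the 79 Xcl1 UMIs, 81 of the 92 of the Fc receptor chain Fcer1g and 99 of the 144 of the T and NK cell receptor Cd7. They carried 42 of the 132 Cxcl10 UMIs and 27 of the 209 Isg15 UMIs. The ratios between the times, over all Tregs, were 2.51 for Fcer1g and 1.996 for Cd7. When these cells were left out at both times, the ratio of Gzma became 0.705 and that of Fcer1g 0.538, and that of Cd7, at 1.22, was short of 1.5-fold. Xcl1 stayed at 5.28 (2.32 to 14.1) and Cxcl10 at 3.30 (2.14 to 5.24) without them, and Gzmb at 1.59 (0.879 to 2.95), with an interval that includes 1. Ccl4 had 111 UMIs in the 24 cells at 12 h. Without innate-like cells it had 12 UMIs at 12 h and 73 at 0 h, a ratio of 0.169 (0.0835 to 0.313). The NK marker list as a whole stood at 3263 CPM at 12 h and 3393 CPM at 0 h in Tregs, with 3 of 5 measured members higher at 12 h, and Ncr1 at 11 UMIs and 1 UMI. Myeloid markers summed to 1046 and 965 CPM and had 3 of 6 members higher (Fcer1g, Tyrobp and Ccr2) and 1 lower, with Csf1r at 0 and 1 UMI. Hepatocyte free RNA gave 10 and 4 UMIs, and Alb 0 at both times. How far cells other than Tregs entered the gate was not tested.

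Ass1, which encodes argininosuccinate synthase of arginine synthesis, was higher outside any list, with 347 CPM at 12 h and 152 CPM at 0 h, a ratio of 2.29 (1.65 to 3.22). It was 2.19 without its top cell, 1.68 in the Foxp3 arm and 1.15 in conventional CD4 T cells. Icos, the co-stimulatory receptor of effector Tregs, had 271 and 175 CPM, a ratio of 1.55 (1.11 to 2.16), against 1.13 in conventional CD4 T cells. Its level was thus the higher one at 12 h while most other receptors of its list were not.

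Tnfrsf4 and some other receptor genes of T cell stimulation were lower at 12 h. Tnfrsf4 had 391 CPM at 12 h and 647 CPM at 0 h, a ratio of 0.605 (0.488 to 0.748), or 0.676 without its top cell, which is short of 1.5-fold. Its level in the Foxp3 arm was 554 and 542 CPM, a ratio of 1.02 (0.721 to 1.47), and in the Ikzf2-Ctla4 arm 256 and 687 CPM, a ratio of 0.372, and the difference between the arms was not tested. Tigit had 208 and 335 CPM, a ratio of 0.619 (0.459 to 0.832), and 0.579 in the Foxp3 arm. Cd5, an inhibitor of antigen receptor signalling, had a ratio of 0.585, the adhesion receptor Cd226 of 0.560, Nrp1 of 0.408 and the secreted suppressive mediator Fgl2 of 0.426. Tnfrsf18 stayed short of 1.5-fold at 0.669 (0.537 to 0.832). Of the 10 measured co-stimulatory genes 3 were lower and 1 higher, and of the 11 Treg identity genes 3 were lower (Tnfrsf4, Nrp1 and Tigit) and 2 higher, Icos among them, with a median of 0.06. In conventional CD4 T cells Tnfrsf4 had a ratio of 0.504 and Tigit of 0.446.

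Immediate early transcripts and targets of the antigen receptor were lower too. Fos had 929.96 CPM in Tregs at 12 h and 1784 CPM at 0 h, a ratio of 0.521 (0.456 to 0.595), and Zfp36l1, an mRNA decay factor, 452 and 898 CPM, a ratio of 0.503 (0.415 to 0.608). The nuclear receptor gene Nr4a2, a target of antigen receptor signals, had 113 and 242 CPM, a ratio of 0.467 (0.315 to 0.683). Of the T cell receptor and activation list 5 of 12 were lower and none higher, with a median of -0.39, and of the immediate early list 3 of 17 were lower and none higher, with a median of -0.32. Other members that passed were Nr4a1 at 0.492, Egr1 at 0.624, Bhlhe40 at 0.615, Ifrd1 at 0.605 and Hspa1b at 0.472. Conventional CD4 T cells had ratios of 0.536 for Fos, 0.515 for Zfp36l1 and 0.357 for Nr4a2. Immediate early genes also answer to tissue digestion, and no value here separates that from the state of the cells in the liver.

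The genes that completed the lower end were a survival pair, class II and metabolic genes. Bcl2a1b and Bcl2a1d, near-identical BCL-2 family survival genes whose reads cannot be fully told apart, had ratios of 0.549 and 0.416, and Odc1, the first enzyme of polyamine synthesis, of 0.542. Cd74, the invariant chain of class II, had 307 and 784 CPM, a ratio of 0.392 (0.313 to 0.489), and B cell markers summed to 667 CPM at 12 h and 1271 CPM at 0 h. Ly6c2 had 13 and 59 UMIs, a ratio of 0.199, and 0.308 without its top cell. The ratio of Hist1h2ae, 0.388, rested on 1 cell with 101 of its 186 UMIs at 0 h and was 0.810 without it. Ccl5, at 0.671, was short of 1.5-fold. Of 12 measured homing genes 2 were higher, among them Ccr2 at 1.80, and 1, the integrin gene Itga4, was lower at 0.575.

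**Figure D4:**
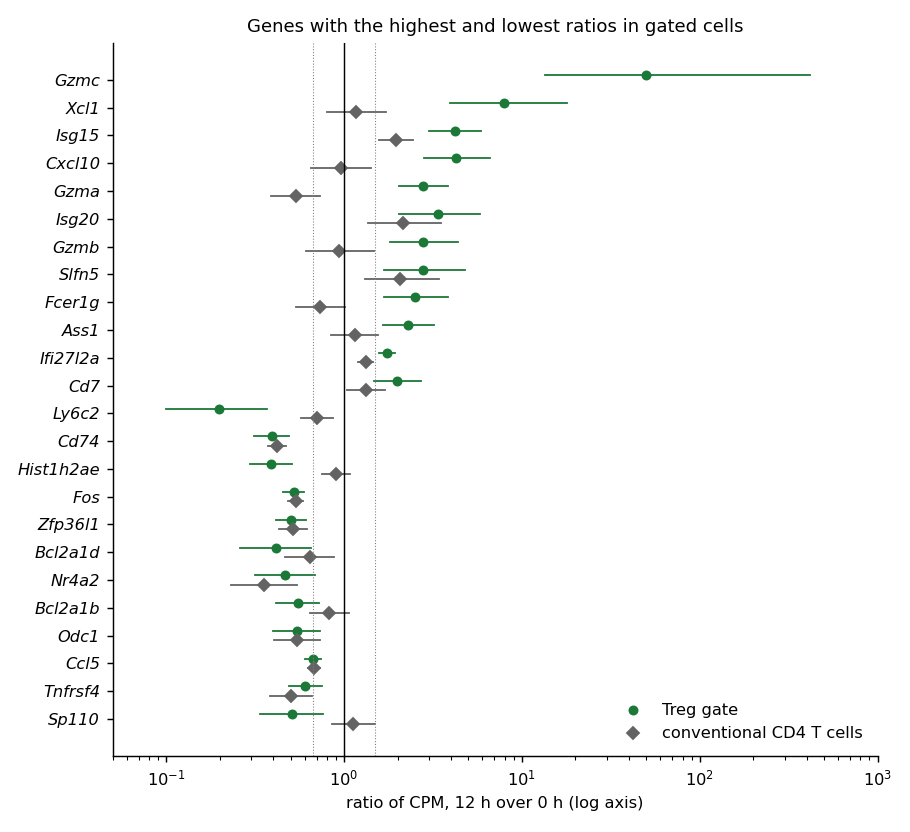
Ratio of CPM at 12 h over 0 h (log axis) for the 24 genes that the naming rule picked in Tregs (circles) and the same genes in conventional CD4 T cells (diamonds), with exact 95% intervals of counting error; dotted lines mark 1.5-fold. Isg15, Cxcl10 and Xcl1 lie further right in Tregs, while Fos, Zfp36l1 and Nr4a2 lie left of 1 in both; the Gzmc point of 50.01 rests on 1 cell, and Gzmc has no point in conventional CD4 T cells, which held 3 and 2 of its UMIs.

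Over all Tregs, 5 of 12 measured proliferation genes were higher at 12 h and 1, the replication clamp Pcna, was lower at 0.591, with a median of 0.44 and a summed ratio of 1.197. Of all 1990 measured genes 5.68% were higher and 7.64% lower. Birc5 had a ratio of 2.32, Ube2c of 1.97, Stmn1 of 1.83, Cks1b of 1.59 and Hmgb2 of 1.502, and without their top cells these were 5.76, 1.58, 2.85, 2.89 and 1.30. Glycolysis and hypoxia genes had 2 of 8 members higher, Pkm at 1.73 and Gpi1 at 1.55, and a median of 0.38. In the Foxp3 arm both sums were higher at 12 h. Glycolysis and hypoxia genes summed to 6967 CPM at 12 h and 4471 CPM at 0 h in the Foxp3 arm, a ratio of 1.56 (1.39 to 1.75). Of their 7 measured members 5 were higher, against 9.58% of 720 measured genes (8.47% were lower). The 5 were Tpi1 at 2.39, Pkm and Mif at 1.74, Gapdh at 1.65 and Ldha at 1.53. The median Treg of this arm held 56.3 such UMIs per 10000 at 12 h and 39.2 at 0 h. In the Ikzf2-Ctla4 arm the summed ratio was 1.04 (0.956 to 1.12) and in conventional CD4 T cells 1.14. Proliferation genes summed to 6413 and 3366 CPM in the Foxp3 arm, a ratio of 1.91 (1.68 to 2.17), with Birc5 at 48 and 2 UMIs, Ube2c at 4.89, Tuba1b at 3.29 and Hmgb2 at 2.21. The median cell held fewer at 12 h, 14.8 per 10000 against 18.3 at 0 h, so the sum rested on a minority of cells. Mki67, a marker of cycling cells, was seen in 8 of 52 Foxp3-arm cells at 12 h and 4 of 42 at 0 h. In the Ikzf2-Ctla4 arm the proliferation ratio was 0.848 (0.773 to 0.930). The difference between the arms was not tested.

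The arms differed in other genes outside the gate. At 12 h the Foxp3 arm had 2.17 times the Tnfrsf4 level of the Ikzf2-Ctla4 arm (1.53 to 3.09) and 2.06 times its Capg level, with 1142 CPM of Capg against 555 CPM, while Izumo1r was lower at 0.549 and Ccl4 at 0.0944. Over all genes at 12 h, 7.35% of 1034 were higher and 7.54% lower in the Foxp3 arm. At 0 h the shares were 7.57% and 12.1% of 951, and S100a4 at 3.00 (2.36 to 3.80) and Areg at 1.94 (1.20 to 3.11) were among the higher ones, whereas Tnfrsf4 had a ratio of 0.788. Klrg1 then had 22 UMIs in the Foxp3 arm (234 CPM) against 15 in the Ikzf2-Ctla4 arm (60.3 CPM), too few to be called. Areg in the Foxp3 arm stood at 150 CPM at 12 h and 350 CPM at 0 h, a ratio of 0.428 (0.246 to 0.738), and in the Ikzf2-Ctla4 arm at 183 and 181 CPM. Klrg1 in the Foxp3 arm had 16 and 22 UMIs. Against conventional CD4 T cells, 10.4% of 2267 measured genes were higher and 12.3% lower in the Foxp3 arm at 12 h, and 9.12% and 15.4% of 1711 at 0 h. It had ratios of 4.36 for Tnfrsf4, 3.53 for Capg and 7.48 for Areg at 12 h, and of 2.15, 2.52 and 3.84 at 0 h.

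**Figure D5:**
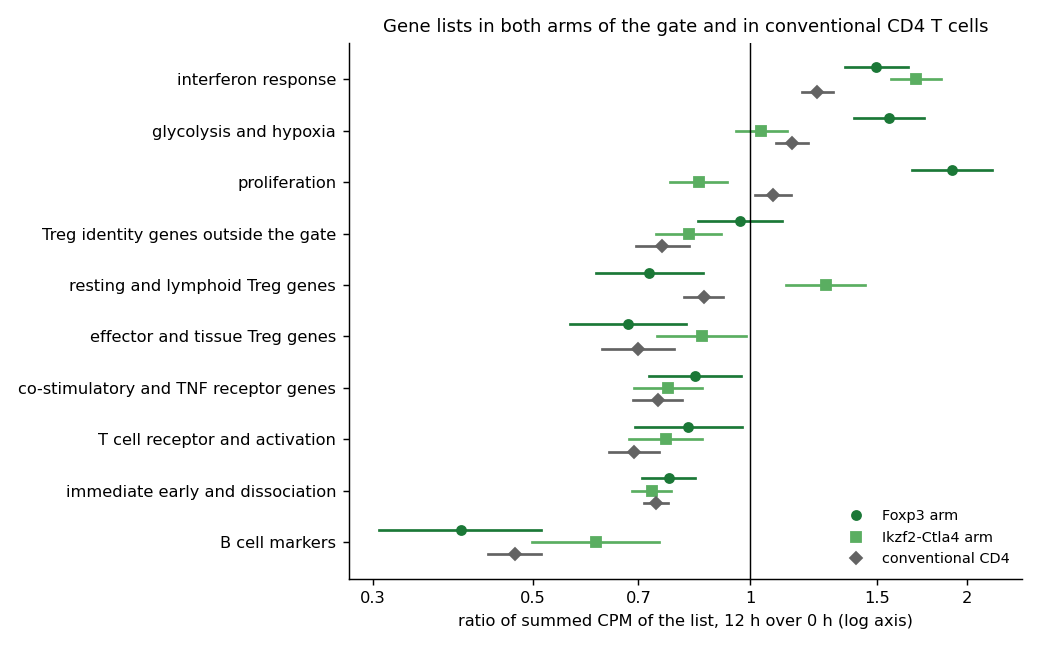
Ratio of the summed CPM of 10 gene lists at 12 h over 0 h (log axis) in the Foxp3 arm (circles), the Ikzf2-Ctla4 arm (squares) and conventional CD4 T cells (diamonds), with exact 95% intervals of counting error. Interferon response lies right of 1 in the 3 kinds of cell and immediate early genes left of it, while proliferation and glycolysis reach 1.91 and 1.56 in the Foxp3 arm.

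Over all Tregs the resting list had a summed ratio between the times of 1.04, but the arms stood on opposite sides of 1, at 0.725 (0.611 to 0.861) in the Foxp3 arm and 1.27 (1.12 to 1.45) in the Ikzf2-Ctla4 arm; this difference was not tested. The effector and tissue list had a summed ratio of 0.791 (0.708 to 0.884) over all Tregs, 0.677 in the Foxp3 arm and 0.858 in the Ikzf2-Ctla4 arm. Areg had a ratio of 0.739 (0.523 to 1.04), Klrg1 of 0.706 and Gata3 of 0.785, all short of 1.5-fold. The gate genes themselves are given as a description: Foxp3 had 176 CPM at 12 h and 155 CPM at 0 h, Ikzf2 470.2 and 647 CPM, and Ctla4 567 and 755 CPM.

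No Treg carried an Il22 UMI. In the IL-22-negative libraries 0 UMIs allow a level of up to 7.88 CPM at 12 h and 8.75 CPM at 0 h. The IL-22-positive library of 12 h held 1 Treg among 1350 barcodes, with 2100.0 UMIs, 2 of Foxp3 and 3 of Tnfrsf4. That of 0 h held 2 among 289: 1 with 2439 UMIs, 2 of Ikzf2 and 5 of Ctla4, and 1 with 1764 UMIs, 1 each of Ikzf2 and Ctla4 and 6 of Tnfrsf4. Ifng, the type 1 effector cytokine, had 40 UMIs in 18 Tregs at 12 h and 27 UMIs in 21 at 0 h, a ratio of 1.34 (0.799 to 2.26). No member of the helper lineage list passed 1.5-fold between the times among the 7 measured. The remaining lists moved little: of 5 suppressive mediators Gzmb was higher and Fgl2 lower, of 7 interleukin 2 and STAT5 genes Socs1 was higher, of 6 NF-kappaB genes Nfkbiz was lower at 0.621, and of 6 tissue residency genes 1 was lower.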

How the data were processed

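The authors deposited UMI counts per gene and barcode as whole numbers, 1 matrix per library with 32285 features. The matrices name Cell Ranger 4.0.0, per the file headers, but version 3.0.1 with mm10 stands in the submitters' processing notes. Per the labels' protocols the livers were digested with collagenase and DNase, leukocytes were enriched on Percoll and sorted, and 10x Single Cell 3' v2 libraries were made. Digestion can induce immediate early genes.

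At 12 h the barcode filter (200 genes, 10% mitochondrial UMIs) took out 132 IL-22-negative and 28 IL-22-positive barcodes, and at 0 h 254 and 11. Scrublet's automatic threshold called 1 barcode of the 12 h library, so that of the 0 h library was used, as decided once this was known. It called 607 (6.01%) at 12 h and 373 (4.49%) at 0 h, 2 and 3 of them Tregs, and removal was an alternative only. UMIs were summed per library and gate with Python 3.11.15, numpy 2.4.6, pandas 2.3.3, scipy 1.17.1 and scanpy 1.11.5. Intervals are exact 95% Poisson, Clopper-Pearson or, for ratios, Clopper-Pearson on the split of 2 sums. A sum of 0 allows up to 3 UMIs. The ratios were checked on counts simulated with counting error alone, a check that does not cover differences between cells or libraries.

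Genes are named by rule: mean of at least 100.0 CPM, ranked by the interval bound nearest to 1, 12 highest and 12 lowest between times and 10 and 10 against conventional CD4 T cells. Mitochondrial, ribosomal protein, antigen receptor, sex-linked marker, haemoglobin, hepatocyte and gate genes were left out. Genes always given and members of 23 lists were added, and further genes were named after their values were seen. The gate, the lists and the tests were chosen with earlier results of these data known. Some results that the rule and the lists gave are not reported here.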

Additional observations from a re-analysis of the deposited data

Results flagged for a closer look

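In 4 genes the ratio of 12 h over 0 h passed 1.5-fold one way in Tregs and the other way in conventional CD4 T cells of the same libraries. Gzma had a ratio of 2.79 in Tregs against 0.533 in conventional CD4 T cells, and 146 of its 170 UMIs at 12 h lay in the 24 Tregs with a UMI of an innate-like gene. Tyrobp, a signalling adaptor of NK and myeloid cells, had 1.52 against 0.532. Ighm, the IgM heavy chain, had 1.51 against 0.485. Lgals3 (galectin 3) went the other way, with 0.653 in Tregs against 2.40. The difference between the classes was not tested for any of them.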

How the results depend on the processing

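Depth, the gate and single cells limited these values most: 126 and 144 cells per library measure few low genes, and nothing was replicated. The Treg share ratio of 0.630 became 0.443 on thinned cells and 0.891 with the Foxp3 arm alone. Counts of genes higher and lower at 12 h over 0 h, 113 and 152, became 69 and 61 with the Foxp3 arm alone, 23 and 31 thinned, 35 and 42 at a minimum of 100 UMIs and 1376 and 1814 with no minimum. Against conventional CD4 T cells at 12 h (261 and 137) they became 48 and 28 thinned, 103 and 42 at 100 UMIs and 1676 and 1524 with no minimum, and the lower count 278 with the Foxp3 arm alone. At 0 h (145 and 174) they became 40 and 24, 49 and 37, and 1279 and 1782, and the lower count 263 with the Foxp3 arm alone. That lower count was 99 without cells holding a UMI of Siglech, Klk1, Tyrobp or H2-Aa, an alternative added after seeing the data. Interferon genes higher at 12 h were 2 of 7 in the Foxp3 arm alone, 3 of 4 thinned and 4 of 8 at 100 UMIs, against 12 of 17. Identity genes higher than in conventional CD4 T cells were 1 of 2 at 12 h when thinned, and 14 of 18 at 12 h and 12 of 19 at 0 h with no minimum. No fold was given where both sums held at most 3 UMIs, or where a sum of 0 gave a bound on the other side of 1.

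Over the named genes and the member counts of some lists, 26 values changed direction, 129 moved and 821 did neither. A gene's ratio moved when it left its interval in the main setting, and a list's count when it changed by more than 1.5-fold. These lists were proliferation, antigen receptor, immediate early, NK, effector and tissue, and resting genes. Raising or dropping the minimum of UMIs cannot change a gene's ratio, only whether it counts as measured. Under those settings the named genes were therefore bound to do neither, and their entries say nothing about how stable the ratios were. Between the times, the Foxp3 arm alone gave ratios of 3.57 for Hist1h2ae and 1.02 for Tnfrsf4. Without innate-like cells Gzma was at 0.705 and Fcer1g at 0.538. Thinned cells gave 0.808 for Xcl1, 0.857 for Gzma, 0.898 for Fcer1g and 2.36 for Hist1h2ae. Without cells holding Siglech, Klk1, Tyrobp or H2-Aa, Gzma was at 0.416 and Fcer1g at 0.583. Against conventional CD4 T cells at 12 h, Ccl4 was at 0.555 with the Foxp3 arm alone and, without innate-like cells, at 0.457 with Gzma at 0.841. Thinned, Gzma was at 0.364, Ccl4 at 0.714, Hist1h2ae at 2.50, Txnip at 1.03 and Psap at 1.19. Without cells holding Siglech, Klk1, Tyrobp or H2-Aa, Ccl4 was at 0.408, Plac8 at 1.02, Cd74 at 1.28 and Psap at 1.06. At 0 h Lgals3 was at 0.406 thinned, and H2-Ab1 at 1.30, Cd74 at 1.17 and Ly6c2 at 1.09 without cells holding Siglech, Klk1, Tyrobp or H2-Aa. Beyond what these alternatives leave out, the cause was not tested. No paired analysis was possible because each group has 1 library and no result comes from a test.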
